A study of Homo sapiens with 6 samples.

Results

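Described here are 9 genes of thyroid identity and hormone production in the papillary thyroid carcinoma line TPC-1, found by gene name among the 58735 genes of the deposited expression table. They are the lineage transcription factors *PAX8*, *NKX2-1*, *FOXE1* and *HHEX*, the hormone genes *TG*, *TSHR*, *SLC5A5* and *DIO2*, and the cadherin gene *CDH16*. By mRNA sequencing, wild strain TPC-1 (3 libraries) was compared with 3 libraries of *RRM2*-OE-TPC-1, the same line infected with a lentivirus that carries *RRM2* (the small subunit of ribonucleotide reductase) under a CMV promoter together with a puromycin resistance gene. The comparison group is the wild strain and not a line with an empty vector, so that effects of infection and selection cannot be told apart from those of *RRM2*. The study's methods describe the libraries as biological triplicates. The sources used here do not say whether the overexpressing cells were a single clone. In the labels, the genotype of *RRM2*-OE-TPC-1 replicates 2 and 3 reads RRM3 and RRM4, whereas their titles give *RRM2*. *RRM2* itself had 8.92 ± 0.346 FPKM (fragments counted on a gene, scaled to its length and to sequencing depth; SD, n = 3) in the wild strain, against 48.4 ± 1.78 FPKM (SD, n = 3) under overexpression.

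Thyroid follicular cells are specified by the joint presence of PAX8, NKX2-1, FOXE1 and HHEX, and PAX8 and NKX2-1 bind the promoters of the hormone genes in mature thyrocytes. Hormone is made on thyroglobulin, the product of *TG*, from iodide that the sodium iodide symporter encoded by *SLC5A5* brings into the cell, under control of thyrotropin through its receptor TSHR and cyclic AMP. *DIO2* encodes the deiodinase that turns thyroxine into active hormone, and *CDH16* encodes a cadherin known from kidney tubules and the thyroid. Expression of the hormone genes is commonly reduced or lost when thyroid carcinomas dedifferentiate.

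The lineage was only partly present, and *RRM2*-OE-TPC-1 differed most in *CDH16*. Of the 9 genes, 5 (*NKX2-1*, *TG*, *TSHR*, *SLC5A5* and *DIO2*) were silent in both groups, that is, their mean was under 0.1 FPKM. The other 4 (*PAX8*, *CDH16*, *FOXE1* and *HHEX*) had at least 0.5 FPKM and 10 reads in at least 3 libraries and were tested with limma on log2(FPKM + 0.1), a scale on which the change of low genes is understated. A gene was called when its adjusted p did not exceed 0.05 and its log2 fold change was at least 1 in size, and by this rule *CDH16* alone was called, as lower in *RRM2*-OE-TPC-1. Over all 13621 tested genes 11.5% were called, 4.48% as higher and 6.97% as lower. All 4 tested members passed on adjusted p alone, as did 67.6% of all tested genes (34.9% as higher and 32.7% as lower), and in all 4 the values of the groups did not overlap, as in 72.2% of tested genes. The number of members passing is therefore to be read against a background in which most tested genes differed by a small amount. The median log2 fold change was -0.33 over the 4 tested members and 0.01 over all tested genes. With 3 libraries a group, the smallest two-sided p of an exact permutation test on 1 gene is 0.1.

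**Figure D1:**
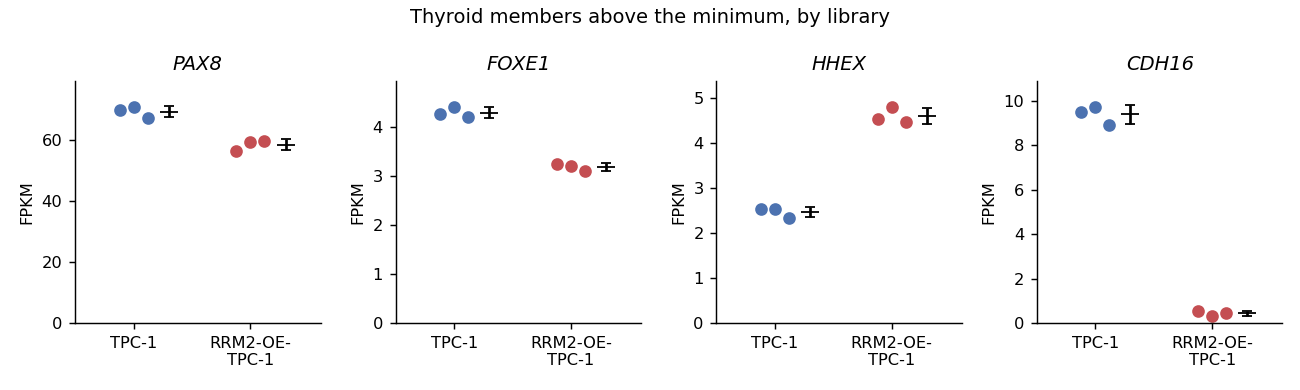
FPKM (linear axis from 0, with its own scale for each gene) of the 4 tested members in 3 TPC-1 libraries (blue) and 3 *RRM2*-OE-TPC-1 libraries (red), with mean and SD in black. *CDH16* goes from 9.39 to 0.461 FPKM, *PAX8* and *FOXE1* are moderately lower and *HHEX* is higher, with no overlap between the groups in any of the 4.

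*PAX8* (ENSG00000125618, chromosome 2, 113215997 to 113278950, minus strand, GRCh38), the paired box factor that sets thyroid and kidney fate, was by far the most abundant member. It had 69.9, 70.8 and 67.3 FPKM in replicates 1 to 3 of TPC-1 and 56.3, 59.4 and 59.8 FPKM in those of *RRM2*-OE-TPC-1, from 6026 to 8815 reads per library. Every overexpressing library was below every wild strain library. The mean went from 69.3 ± 1.84 to 58.5 ± 1.92 FPKM (SD, n = 3), which is 15.6% lower. The log2 fold change was -0.24 (SE 0.0373, 95% interval -0.33 to -0.16, limma adjusted p = 5.46e-04), so that *PAX8* passed on adjusted p and stayed well under the fold threshold. In TPC-1, 98.0% of protein-coding genes had a mean at or below that of *PAX8*, and in *RRM2*-OE-TPC-1 97.1% did. The exons of *PAX8* share 685 bases with its antisense gene *PAX8-AS1*. The library kit keeps strand, and whether strand was used in counting is not given in the sources used here. *PAX8-AS1* held 892 to 1036 reads in the wild strain and 862 to 1190 in *RRM2*-OE-TPC-1, with a log2 fold change of 0.16 (limma adjusted p = 0.119), and its share in the reads of *PAX8* was not tested.

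*FOXE1* (ENSG00000178919, chromosome 9, 97853254 to 97856715, plus strand), a forkhead factor of thyroid migration and hormone gene expression, had 4.28, 4.41 and 4.20 FPKM in the wild strain and 3.26, 3.20 and 3.10 FPKM in *RRM2*-OE-TPC-1. All overexpressing libraries were lower. The log2 fold change was -0.42 (SE 0.0618, 95% interval -0.56 to -0.28, limma adjusted p = 4.38e-04), again under the fold threshold, on 736 reads in the wild strain and 524 in *RRM2*-OE-TPC-1.

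*HHEX* (ENSG00000152804, chromosome 10, 92689951 to 92695646, plus strand), a homeobox factor of foregut, thyroid bud and blood progenitors, went the other way. Its values were 2.54, 2.54 and 2.34 FPKM in the wild strain and 4.55, 4.81 and 4.47 FPKM in *RRM2*-OE-TPC-1. The lowest overexpressing library was thus well above the highest wild strain library. *HHEX* was 1.86-fold higher by the group means, with a log2 fold change of 0.87 (SE 0.0705, limma adjusted p = 1.41e-05). Its 95% interval, 0.71 to 1.04, includes the threshold of 1, so these libraries do not settle whether the change reaches that size. In TPC-1 *FOXE1* was above *HHEX* in every library, whereas in *RRM2*-OE-TPC-1 *HHEX* was above *FOXE1* in every library; this comparison is of levels per length, in FPKM, and was not tested.

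*NKX2-1* (ENSG00000136352, chromosome 14, 36516392 to 36521149, minus strand), the homeobox factor that defines thyroid, lung and ventral forebrain, was at 0 reads in all 6 libraries. A count of 0 over 3 libraries allows up to 3 reads, which is 0.0192 FPKM in the wild strain and 0.0199 FPKM in *RRM2*-OE-TPC-1. Its antisense neighbour *NKX2-1-AS1*, which shares 402 bases of exon with it, and *AL132857.1* on the same strand, which shares 54, were at 0 reads as well. How reads on the shared bases were assigned is not given in the sources used here, and their part in this count was not tested.

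The starts of the lineage genes are shown because *PAX8*, *FOXE1* and *HHEX* carried reads and *NKX2-1* did not. Each window, from RefSeq on GRCh38.p14, runs from 250 bases before to 50 bases after an annotated start. Of the 9 genes, 7 had a window, 9 windows in all, and *CDH16* and *TG* had none. The letters CAAGTG (core of NKX2-1 sites), GTCACG (core of PAX8 sites) and TAAACA (core of forkhead sites) were searched on both strands, and matches stand in capitals.
PAX8 (chr2:113278872-113279171, minus strand): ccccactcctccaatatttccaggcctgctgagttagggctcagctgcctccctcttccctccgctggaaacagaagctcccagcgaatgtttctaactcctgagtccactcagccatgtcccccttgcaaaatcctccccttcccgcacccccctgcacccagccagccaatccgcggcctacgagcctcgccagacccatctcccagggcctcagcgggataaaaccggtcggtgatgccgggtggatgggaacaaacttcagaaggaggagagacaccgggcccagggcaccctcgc
FOXE1 (chr9:97852976-97853275, plus strand): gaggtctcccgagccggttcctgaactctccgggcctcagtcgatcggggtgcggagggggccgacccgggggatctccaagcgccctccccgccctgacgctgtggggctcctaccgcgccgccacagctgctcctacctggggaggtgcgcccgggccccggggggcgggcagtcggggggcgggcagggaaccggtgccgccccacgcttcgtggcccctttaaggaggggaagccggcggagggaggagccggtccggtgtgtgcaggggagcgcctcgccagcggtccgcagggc
HHEX (chr10:92689705-92690004, plus strand): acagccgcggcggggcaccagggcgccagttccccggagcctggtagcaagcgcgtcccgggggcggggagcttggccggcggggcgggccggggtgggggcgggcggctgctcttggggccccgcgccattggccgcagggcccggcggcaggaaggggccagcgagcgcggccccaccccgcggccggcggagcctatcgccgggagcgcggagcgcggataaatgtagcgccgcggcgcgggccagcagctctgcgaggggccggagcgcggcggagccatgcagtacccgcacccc
NKX2-1 (chr14:36519507-36519806, minus strand, start within the gene): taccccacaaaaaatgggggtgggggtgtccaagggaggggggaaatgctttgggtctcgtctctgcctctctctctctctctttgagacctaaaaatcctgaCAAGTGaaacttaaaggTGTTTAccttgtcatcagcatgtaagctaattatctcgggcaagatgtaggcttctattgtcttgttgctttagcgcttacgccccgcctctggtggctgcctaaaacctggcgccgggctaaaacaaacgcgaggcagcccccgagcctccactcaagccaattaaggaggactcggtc
Of the 9 windows, 1 held a match. In the *NKX2-1* window printed here, CAAGTG began 147 bases before the start, and TAAACA on the opposite strand, read as TGTTTA, began 130 bases before it. The windows of *PAX8*, *FOXE1*, *HHEX*, *TSHR*, *SLC5A5* and *DIO2*, and the other window of *NKX2-1*, held none of these letters. Over all 35116 windows in the table, CAAGTG was found in 11.5%, GTCACG in 9.02% and TAAACA in 12.3%. Guanine and cytosine made up 62% of the *PAX8* window, 76% of that of *FOXE1* and 80.3% of that of *HHEX*. For *NKX2-1* they made up 52% of the window printed here and 69% of its other window, so the 2 windows of this gene differ. That other window (chr14:36520183-36520482) lies within the span given above for *NKX2-1* as well.

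*CDH16* (ENSG00000166589, chromosome 16, 66908122 to 66918984, minus strand) was the one member called. It had 9.52, 9.73 and 8.92 FPKM in TPC-1, from 581, 598 and 520 reads, and 0.568, 0.351 and 0.464 FPKM in *RRM2*-OE-TPC-1, from 30, 22 and 27 reads. The overexpressing cells therefore held 4.91% of the wild strain level, a 20.4-fold difference between the group means. In *RRM2*-OE-TPC-1 only the library at 0.568 FPKM reached the minimum of 0.5 FPKM. *CDH16* thus met the minimum in 3 libraries through the wild strain, where it is high. The log2 fold change was -4.10 (SE 0.141, 95% interval -4.42 to -3.77, limma adjusted p = 2.00e-07), and leaving out single libraries moved it no further than -3.95 and -4.23. Only 8 of the 13621 tested genes, *CDH16* included, had a log2 fold change as low. In TPC-1 its level was at or above that of 78.3% of protein-coding genes, and in *RRM2*-OE-TPC-1 of 43.4%. In a bulk sample, fewer cells with a transcript and less transcript per cell cannot be told apart. With a pseudocount of 1 the log2 fold change was -2.83, and with voom on recovered reads it was -4.43, both with an adjusted p far under the threshold (3.24e-08 and 1.07e-15 from limma). *CDH16* was the second most abundant member in TPC-1, above *FOXE1* and *HHEX* in every library, and the lowest of the 4 tested members in *RRM2*-OE-TPC-1.

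The tested genes with the pattern most like *CDH16*, by the root mean square difference of centred log2 values over the 6 libraries, were *NOX5* (0.22), *EPPIN* (0.24) and *NFE2* (0.28). *NOX5*, a calcium-dependent NADPH oxidase, went from 20.4 ± 0.824 to 1.22 ± 0.0641 FPKM (SD, n = 3). *EPPIN*, a protease inhibitor of the epididymis, went from 3.49 ± 0.473 to 0.0807 ± 0.0178 FPKM (SD, n = 3), and its value is uncertain because it shares exons with the read-through gene *EPPIN-WFDC6*. *NFE2*, a blood cell transcription factor, went from 3.27 ± 0.0921 to 0.145 ± 0.051 FPKM (SD, n = 3). The likeness reflects a decrease of similar size in the same libraries. With only the 2 groups to vary over, it says little about any gene in particular.

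The genes of hormone production and response were represented by a handful of reads, and their counts are given in place of fold changes. *TG* (ENSG00000042832, chromosome 8), the thyroglobulin gene, had 5, 5 and 9 reads in the wild strain and 14, 10 and 20 reads in *RRM2*-OE-TPC-1. Its exons span 11132 bases, so that these reads are a mean of 0.0348 FPKM in the wild strain and 0.0841 FPKM in *RRM2*-OE-TPC-1. The highest wild strain library (0.0507 FPKM) lay just under the lowest overexpressing library (0.0524 FPKM). Pooled over libraries, the level was 0.0345 FPKM (exact Poisson 95% interval 0.0208 to 0.0539) in the wild strain and 0.0832 FPKM (0.0604 to 0.112) in *RRM2*-OE-TPC-1, and these intervals cover counting error only. When genes of all levels were admitted to the fit, *TG* passed neither limma on log2 values (log2 fold change 0.44, adjusted p = 0.221) nor limma voom on recovered reads (1.14, adjusted p = 0.0696). A higher level of *TG* was therefore not established, and it was silent in both groups by the rule used. *AF305872.1*, which shares 96 exon bases with *TG* on the opposite strand, was at 0 reads.

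*TSHR* (ENSG00000165409, chromosome 14), the thyrotropin receptor gene, had 2, 0 and 1 reads in the wild strain and 0, 5 and 1 in *RRM2*-OE-TPC-1. Both groups contain a library without a read, and replicate 2 of *RRM2*-OE-TPC-1 alone gave 5 of the 9 reads in all. *DIO2* (ENSG00000211448, chromosome 14) had 0, 0 and 1 reads in the wild strain and 2, 1 and 1 in *RRM2*-OE-TPC-1, and *DIO2-AS1*, which shares 70 exon bases with it, had none. *SLC5A5* (ENSG00000105641, chromosome 19), the symporter gene on which radioiodine uptake depends, had 1, 0 and 0 reads in the wild strain and 1, 1 and 0 in *RRM2*-OE-TPC-1. With 1 to 6 reads per group for *TSHR*, *DIO2* and *SLC5A5*, a difference was not detectable at this depth of 14317091 to 17084067 reads on genes per library. The upper 95% Poisson bounds in TPC-1 were 0.0179 FPKM for *TSHR*, 0.015 for *DIO2* and 0.0309 for *SLC5A5*, and in *RRM2*-OE-TPC-1 they were 0.0277, 0.0288 and 0.0416 FPKM. In the fit without a minimum the adjusted p was 0.776 for *TSHR*, 0.534 for *DIO2* and 0.717 for *SLC5A5* (limma).

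**Figure D2:**
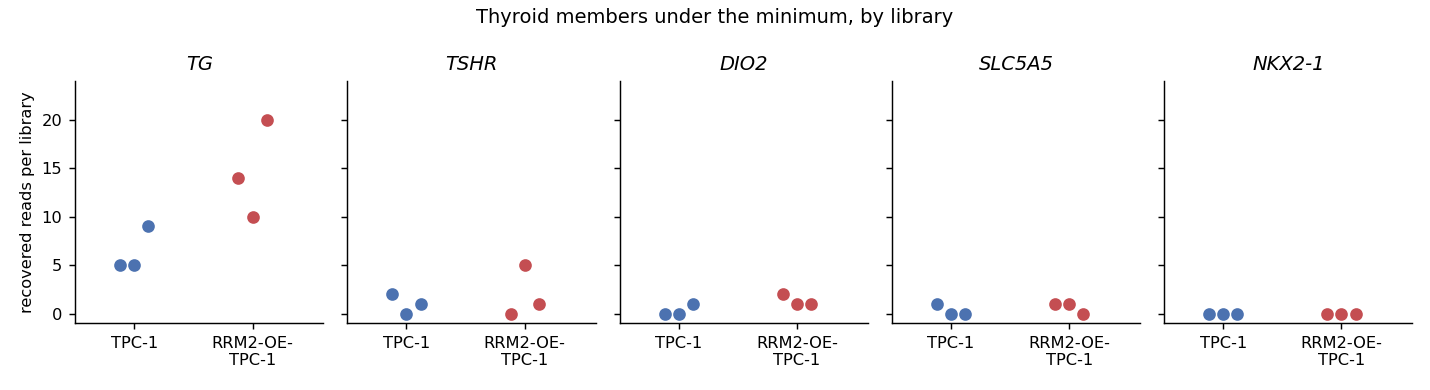
Reads per library recovered from the FPKM values (linear axis) of the 5 silent members in 3 TPC-1 libraries (blue) and 3 *RRM2*-OE-TPC-1 libraries (red), with 1 point for each library. *TG* lies between 5 and 20 reads, *TSHR*, *DIO2* and *SLC5A5* between 0 and 5, and *NKX2-1* at 0 throughout.

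By mean FPKM, the order in TPC-1 was *PAX8*, *CDH16*, *FOXE1*, *HHEX* and then *TG*, and in *RRM2*-OE-TPC-1 it was *PAX8*, *HHEX*, *FOXE1*, *CDH16* and then *TG*. No neighbours among these 5 overlapped in either group. *TSHR*, *SLC5A5* and *DIO2*, at means of 0.00279 to 0.0119 FPKM over both groups, overlapped with each other and cannot be ordered.

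The other genes of thyroid biology were taken from 6 overlapping lists, which hold 69 genes besides the members. Of these, 38 were tested and 3 were called, all as lower in *RRM2*-OE-TPC-1. That is 7.89% called, below the 11.5% of all tested genes. On adjusted p alone 32 of the 38 passed, 11 as higher and 21 as lower. Of all tested genes 67.6% passed in that way, 34.9% as higher and 32.7% as lower. The median log2 fold change of the 38 was -0.19, against 0.01 over all tested genes. Without TPC-1 replicate 2, only *GLIS3* of the 3 was called.

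Among lineage and foregut factors besides the members, 9 of 13 genes were tested, 2 were called as lower, and on adjusted p alone 4 were higher and 5 lower. Over all tested genes 6.97% were called as lower, and on adjusted p alone 34.9% were higher and 32.7% lower. *GLIS3*, a Kruppel-like zinc finger factor whose mutation causes a form of congenital hypothyroidism, had 13.6, 14.1 and 13.5 FPKM in the wild strain and 5.60, 6.01 and 6.24 FPKM in *RRM2*-OE-TPC-1. Its groups were far apart, with a log2 fold change of -1.19 (SE 0.0524, limma adjusted p = 6.29e-07). Of the same list, *NKX2-5* (0.87), *SOX9* (0.66) and *FOXA1* (0.60), chosen after their values were seen, were higher on adjusted p alone by limma, beside *HHEX*. *HES1* (-0.95) and *HOXA3* (-0.93), chosen in the same way, were lower on adjusted p alone. Voom on recovered reads called both, and 4 genes of this list in all.

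In the TSH receptor and cyclic AMP list, 15 of the 17 genes besides *TSHR* were tested, so that most of the signaling chain below the nearly silent receptor was expressed. On adjusted p alone 11 of the 15 were lower and 2 higher, against 32.7% lower and 34.9% higher of all tested genes, and 1 was called. *PDE4D*, a phosphodiesterase that degrades cyclic AMP, had 0.764, 0.981 and 1.05 FPKM in the wild strain and 0.373, 0.358 and 0.350 FPKM in *RRM2*-OE-TPC-1, without overlap. Its log2 fold change was -1.15 (SE 0.169, limma adjusted p = 4.33e-04). With any of the TPC-1 libraries left out it no longer met the minimum in 3 libraries and was not tested, and with a pseudocount of 1 the call was lost (-0.50). *GNAS*, which encodes the G protein subunit that couples TSHR to adenylyl cyclase and was chosen after its values were seen, went from 133 ± 5.14 to 106 ± 1.28 FPKM (SD, n = 3).

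The list of hormone synthesis and iodide handling held 17 genes besides *TG* and *SLC5A5*, of which 11 were silent in both groups. *SLC5A8*, *ANO1*, *IYD* and *LRP2* were at 0 reads in all libraries. The 4 tested genes were *DUOX1* and the cathepsin genes *CTSB*, *CTSK* and *CTSL*. None was called by limma, 3 had an unadjusted p under 0.05, as did 70.5% of all tested genes, and voom on recovered reads called 1 of them. That gene was *DUOX1*, an oxidase that supplies hydrogen peroxide for iodination, with 0.618 ± 0.0567 FPKM in the wild strain and 0.268 ± 0.00959 FPKM in *RRM2*-OE-TPC-1 (SD, n = 3), a log2 fold change of -0.96 (limma adjusted p = 0.00145). Every *RRM2*-OE-TPC-1 library was under the minimum of 0.5 FPKM, so *DUOX1* entered the test through the wild strain alone. *SLC26A4*, the gene of the iodide exchanger pendrin, was under the minimum, with 24, 15 and 16 reads in the wild strain and 2, 4 and 6 in *RRM2*-OE-TPC-1. The groups did not overlap, and in the fit without a minimum *SLC26A4* was called (log2 fold change -1.02, limma adjusted p = 0.0315). *DUOX1* and *SLC26A4* were chosen after their values were seen.

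In the list of hormone transport, deiodination and receptors, 8 of the 14 genes besides *DIO2* were tested. None was called by limma or by voom on recovered reads, and 6 of the 8 had an unadjusted p under 0.05, a share near the 70.5% of all tested genes. The hormone receptors were expressed in both groups: *THRB* at 10.3 ± 0.139 and 8.35 ± 0.347 FPKM and *THRA* at 2.43 ± 0.106 and 2.25 ± 0.0731 FPKM (SD, n = 3) in the wild strain and *RRM2*-OE-TPC-1. These genes were chosen after their values were seen.

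The list of thyroid differentiation score genes combines parts of the others. Of its 9 genes besides members 4 were tested, and 1, *GLIS3*, was called as lower, as were 6.97% of all tested genes. All 4 were lower, with a median log2 fold change of -0.63, and 3 of them passed on adjusted p alone. Of all tested genes 32.7% were lower on adjusted p alone. Beside the members on the chromosome, *CEP128*, which reaches into the *TSHR* locus from the opposite strand without a shared exon base, was expressed at 0.608 ± 0.0727 FPKM in the wild strain and 0.941 ± 0.0832 FPKM in *RRM2*-OE-TPC-1 (SD, n = 3). In the list of genes beside the members, 2 of 8 were tested and none was called by limma or voom. By limma 11.5% of all tested genes were called. *CEP128* (log2 fold change 0.56, limma adjusted p = 0.0104) was the 1 gene of this list with an unadjusted p under 0.05, as were 70.5% of all tested genes.

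**Figure D3:**
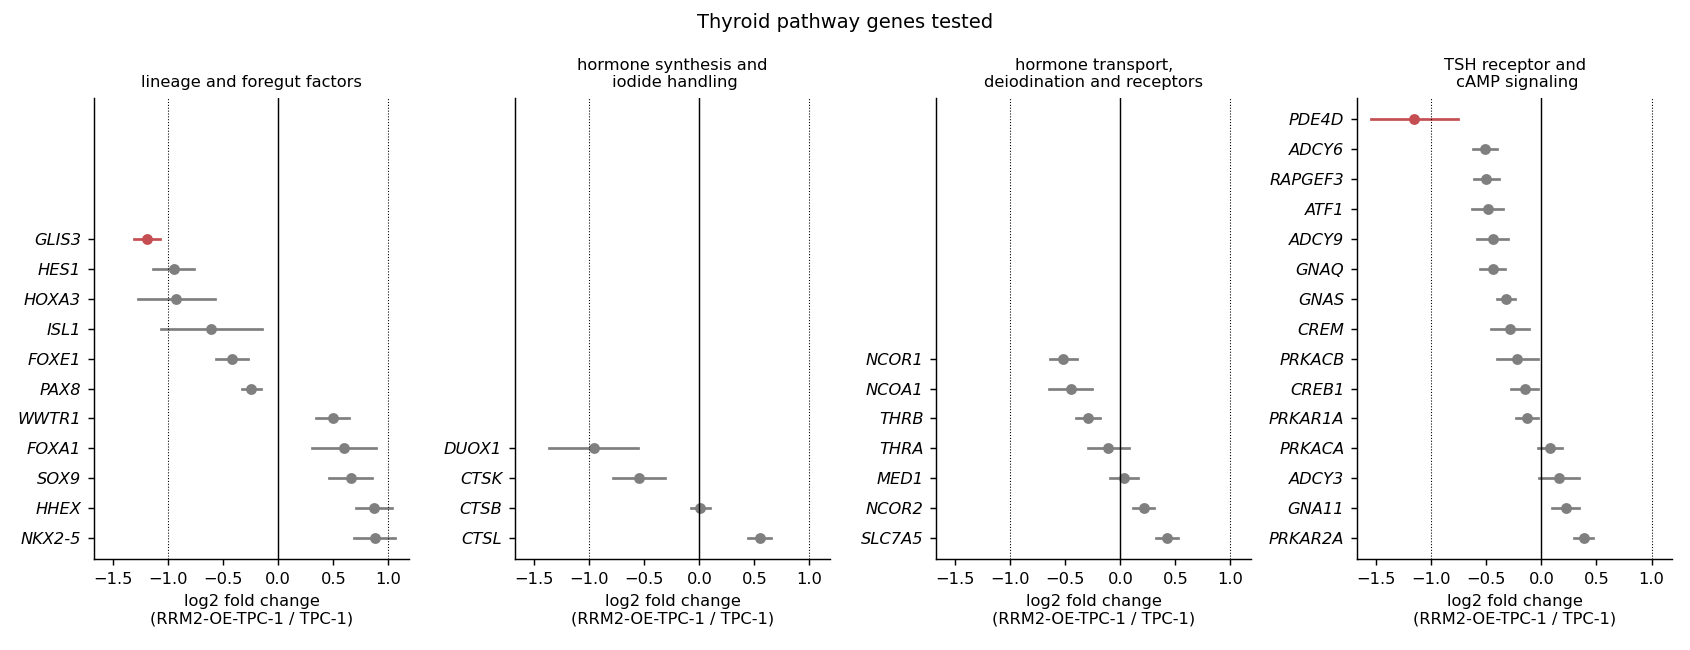
Log2 fold change (*RRM2*-OE-TPC-1 over TPC-1) with its 95% interval for tested genes of 4 thyroid lists, called genes in red and others in grey, with dotted lines at the threshold of 1 in each direction. *GLIS3* and *PDE4D* lie beyond -1, *HHEX* at 0.87 is among the highest, and *PAX8* and *FOXE1* lie between -0.5 and 0.

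The labels give thyroid as the tissue and papillary thyroid carcinoma cells as the cell type. Of 10 follicular markers, *PAX8* and *FOXE1* were above 0.5 FPKM, *NKX2-1* and *IYD* were at 0, and 6, these last 2 included, were silent in both groups, so that most of the defining markers were absent or nearly absent. The summed level of the list, nearly all of it *PAX8*, was 71.8 to 75.5 FPKM in the wild strain and 59.7 to 63.2 in *RRM2*-OE-TPC-1. *PAX8* and *CDH16* are also genes of the kidney, and 8 kidney markers were therefore read beside them. *PAX2*, the kidney paralogue of *PAX8*, had 12.8, 10.9 and 12.0 FPKM in the wild strain and 4.45, 4.59 and 5.16 FPKM in *RRM2*-OE-TPC-1 (log2 fold change -1.31, SE 0.0777, limma adjusted p = 2.71e-06). The kidney list summed to 28.2 to 31.2 FPKM in the wild strain and 16.0 to 18.6 FPKM in *RRM2*-OE-TPC-1, 3 of its 8 genes being tested and 1 called, while the tubule markers *UMOD* and *AQP2* were at 0 in all libraries. *PAX2* is part of these sums, all 3 tested genes were lower, and 5 of the 8 were silent in both groups. Of all tested genes 11.5% were called. The summed list was thus lower where *CDH16* was lower, which with only 2 groups says little, and its part in that result was not tested. *RET*, which is rearranged in this line and was chosen after its values were seen, had 7.76 ± 0.377 and 7.59 ± 0.313 FPKM (SD, n = 3), and FPKM values do not show a fusion.

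**Figure D4:**
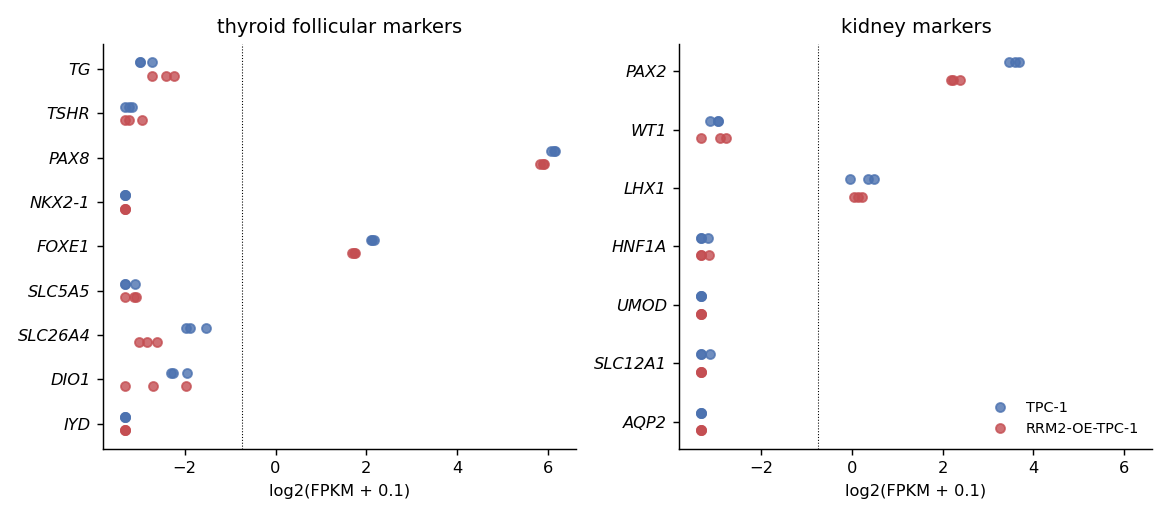
Level as log2(FPKM + 0.1) of 9 thyroid follicular markers and 7 kidney markers, with a point for each of 3 TPC-1 (blue) and 3 *RRM2*-OE-TPC-1 (red) libraries and a dotted line at 0.5 FPKM. *PAX8* and *FOXE1* stand apart from 7 follicular markers below the line, and *PAX2* and *LHX1* are above it in all libraries.

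Most markers of other cell types were low or at 0. Among 8 epithelial markers *KRT18* was called as higher, from 41.2 ± 1.78 to 85.2 ± 1.26 FPKM (SD, n = 3), a log2 fold change of 1.05. Voom on recovered reads called 0 genes of this list. With voom and no minimum the log2 fold change of *KRT18* was 0.99, under the threshold. The epithelial list, nearly all of it *KRT18*, summed to 43.0 to 47.2 FPKM in the wild strain and 88.4 to 90.8 in *RRM2*-OE-TPC-1. Of its 8 genes 5, *EPCAM* and *CDH1* included, were silent in both groups. *KRT7* (log2 fold change -0.21) and *KRT8* (0.43) were tested and not called. Of 8 fibroblast markers *COL1A2*, *COL3A1* and *DCN* were at 0. *ACTA2* was called as higher, with 7 reads in each TPC-1 library and 115, 148 and 95 reads in those of *RRM2*-OE-TPC-1. Every TPC-1 library was under the minimum of 0.5 FPKM, so *ACTA2* entered the test through *RRM2*-OE-TPC-1 alone. *COL1A1* went the other way and was lower on adjusted p alone (log2 fold change -0.61, limma adjusted p = 0.0129). *PDGFRB* (0.16, limma adjusted p = 0.223) was tested and not called. The fibroblast list summed to 3.11 to 3.52 FPKM in the wild strain and 4.94 to 5.95 FPKM in *RRM2*-OE-TPC-1. Of 6 endothelial markers *KDR* was at 0 and 1, *PECAM1*, was tested. *PECAM1* was called as lower (log2 fold change -2.71, limma adjusted p = 2.35e-05), with a mean in *RRM2*-OE-TPC-1 under the minimum of 0.5 FPKM. The endothelial list summed to 1.10 to 1.37 FPKM in the wild strain and 0.473 to 0.542 FPKM in *RRM2*-OE-TPC-1. Beside the calls in these marker lists, 11.5% of all tested genes were called. The 8 C cell and neuroendocrine markers summed to at most 0.506 FPKM in any library, with *CALCA* and *CEACAM5* at 0, *CALCB* highest in TPC-1 (mean 0.199 FPKM) and *SYP* highest in *RRM2*-OE-TPC-1 (mean 0.198 FPKM), and the 6 leukocyte markers to at most 0.410 FPKM, with *CD3E* and *LYZ* at 0 and *CD14* highest. These lists were read over all libraries, and their part in the results for the thyroid genes was not tested.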

How the data were processed

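The authors deposited FPKM, made from HISAT2 alignments and featureCounts gene counts by scaling to gene length and depth. The submitters' processing notes name GRCh38.p14, HISAT2 2.0.5, featureCounts 1.5.0 and DESeq2 1.20.0. The labels describe ribosomal RNA removal and RNase R digestion, whereas the methods describe poly(A) selection. All 58735 identifiers, positions and lengths were those of GENCODE 29, and 12 symbols altered to dates were restored. FPKM times gene length was a whole multiple of a single step for 100.0% of values (tolerance 0.01 reads), which gave reads; libraries held 14317091 to 17084067.

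Values were fitted as log2(FPKM + 0.1) with limma 3.58.1 (R 4.3.3; lmFit, eBayes with trend) and Benjamini-Hochberg adjustment over all 13621 genes with at least 0.5 FPKM and 10 reads in at least 3 libraries. A low gene could thus enter the test through its higher group alone. The named genes are the members, called genes of the lists, the 3 genes most like a called member, genes whose exons overlap a member, *RRM2*, and markers at 0 or highest in a list. Some genes that this rule covers are not reported here. The members and lists were chosen with earlier results of these data known. Tables used Python 3.11.15, scipy 1.17.1 and matplotlib 3.10.9. The fit was tested on simulated data. Alternatives were other filters, pseudocounts of 1 and 0.01, other scalings, voom, a replicate block, leaving out each library, adjusted p alone and limma treat.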

Additional observations from a re-analysis of the deposited data

How the results depend on the processing

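*CDH16* remained called under every alternative run, with a log2 fold change from -2.83 to -4.43, and no other member was called except on adjusted p alone, where 4 members passed. *PAX8*, *FOXE1* and *HHEX* kept their direction throughout. Of the 41 tested genes in the 6 lists, members in them included, 3 were called. This became 1 with a pseudocount of 1, 5 with library totals and 6 with voom on recovered reads. It was 7 with voom and no minimum (added after seeing the data) and 1 to 3 with each library left out. On adjusted p alone it was 35, a rule that 67.6% of all tested genes passed. With limma treat (a change above 1) it was 0. Against no change 35 had an unadjusted p under 0.05 by limma, as did 70.5% of all tested genes. The replicate numbers did not pair the samples (correlations of deviations -0.011, -0.006 and -0.055), and with the replicate block 1 member, 3 list genes and 1566 genes in all were called. Over all genes 1560 were called, 716 with a pseudocount of 1, 3392 with voom and no minimum, 9207 on adjusted p alone and 618 with treat. By Pearson correlation the genes most like *CDH16* were *DOCK6*, *APLP2* and *MYLIP*, of which 0 were among the 3 named. Depth limits *TSHR*, *DIO2* and *SLC5A5*, for which no difference could be measured.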
